A study of Homo sapiens with 15 samples.

Results

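Chemokines, their receptors and inflammatory cytokines were represented by 7 of the 84 target genes on a Tumor Metastasis PCR array, which measures transcripts by quantitative PCR. The deposited table holds 96 wells (target genes, housekeeping genes and controls), whereas the text of the study describes another plate format. Members were chosen by what they encode: the chemokines CCL7 and CXCL12, the chemokine receptors CXCR2 and CXCR4, and the cytokines IL1B, IL18 and TNFSF10.

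The array was run on the human triple-negative breast cancer lines MDA-MB-468 and MDA-MB-231, either unstimulated or exposed to conditioned medium (CM) of monocyte-derived macrophages (MDM) that cancer cells had primed. Which transcripts of cancer cells change when they meet the products of such macrophages was the question of the comparison. The sample labels list 3 MDA-MB-231 samples with CM, 4 unstimulated MDA-MB-231 samples, 4 MDA-MB-468 samples with CM and 4 unstimulated MDA-MB-468 samples, and they give 24 h of exposure, where the text of the study gives a shorter time. The MDM had been kept in supernatant of cancer cells, all of which was collected with their own products, so effects of macrophage products and of cancer cell products in CM cannot be told apart.

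Values are fold changes, the transcript level of a CM sample over that of 1 unstimulated sample, scaled here to ACTB in MDA-MB-231 cells and to RPLP0 in MDA-MB-468. Each line had 3 comparisons, which are named after their unstimulated control, number 2, 3 or 4. A gene was counted as raised when the geometric mean of its 3 fold changes was above 2 and every comparison was above 1, and as lowered when the mean was below 0.5 and every comparison was below 1. No test was run: nothing in the labels says that the 3 comparisons came from separate cultures, the spread between them may be technical, and an exact 2-sided sign test on 3 values cannot give a p below 0.25. The comparisons with control 4 carried CM sample number 3 in their headings, as those with control 3 did, and the headings of all 3 MDA-MB-468 comparisons named an MDA-MB-231 control. Which samples entered these ratios is therefore not settled, and the MDA-MB-468 values are given under the pairing that the study describes, CM over unstimulated cells of the same line.

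Genes known to separate the lines were set against these labels. CDKN2A, which MDA-MB-231 cells are known to lack, gave 0.986, 1.07 and 0.496 in MDA-MB-468. It gave 1.19, 2.47 and 1.72 in MDA-MB-231, and in the comparisons with controls 2 and 4 these were the values of the reverse transcription control wells. Its MDA-MB-231 mean of 1.72 was 2.06 without control 2, then counted as raised. Whether CDKN2A was detected in MDA-MB-231 is not known, so the counting rule can reach a gene of unknown detection. RB1, known to be lost in MDA-MB-468 cells, averaged 0.841-fold in MDA-MB-231 cells and 0.0672-fold in MDA-MB-468. SMAD4, also known to be lost in MDA-MB-468 cells, was low in both lines, with means of 0.127 and 0.172 (0.265 in MDA-MB-468 without control 4), and CDH1 (E-cadherin), known to be low in MDA-MB-231 cells, had means of 1.51 and 1.39. These ratios hold no level of either line, and the 4 genes did not give a single answer on which line stood under the MDA-MB-468 ratios.

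Chemokines are small secreted proteins that steer cell migration through G protein-coupled receptors on the responding cell. CXCL12 signals through CXCR4, a pair known for the homing of breast cancer cells to lung and bone marrow, whereas CXCR2 binds neutrophil-attracting chemokines such as CXCL8. Interleukin-1β and interleukin-18 are cytokines of the same family, made as precursors and cleaved after inflammasome activation, and TNFSF10 (TRAIL) is a death ligand of the tumor necrosis factor family.

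In MDA-MB-231 cells, 5 of the 7 genes were counted as raised (CCL7, CXCL12, CXCR2, IL1B and TNFSF10), against 26 of the 84 target genes (31.0%). In MDA-MB-468 cells, 4 of the 7 were counted as raised (CCL7, CXCL12, IL1B and TNFSF10), against 23 of 84 (27.4%). These 4 were raised in both lines, where 21 of the 84 target genes were (25.0%). Scaled to the reverse transcription control wells, the raised genes were 4 members and 16 target genes for MDA-MB-231, and 3 members and 12 target genes for both lines. No member was counted as lowered in either line, against 3 of 84 (3.57%) in each. In MDA-MB-468 that background was 9 without control 2 and 10 without control 3. The members' share was thus above that of the array in both lines, which describes 7 genes picked with earlier results known. The split of the array was 23 raised and 3 lowered in MDA-MB-468 with RPLP0 as the reference, and 22 raised and 11 lowered with the mean of the 5 housekeeping genes, among which B2M had a mean fold change of 3.75. The median log2 fold change was 1.67 over the members and 0.13 over the 84 target genes in MDA-MB-231, and 1.52 and -0.16 in MDA-MB-468. As RNA of whole cultures was measured, a change in the number of expressing cells and a change in transcript per cell cannot be told apart.

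**Figure D1:**
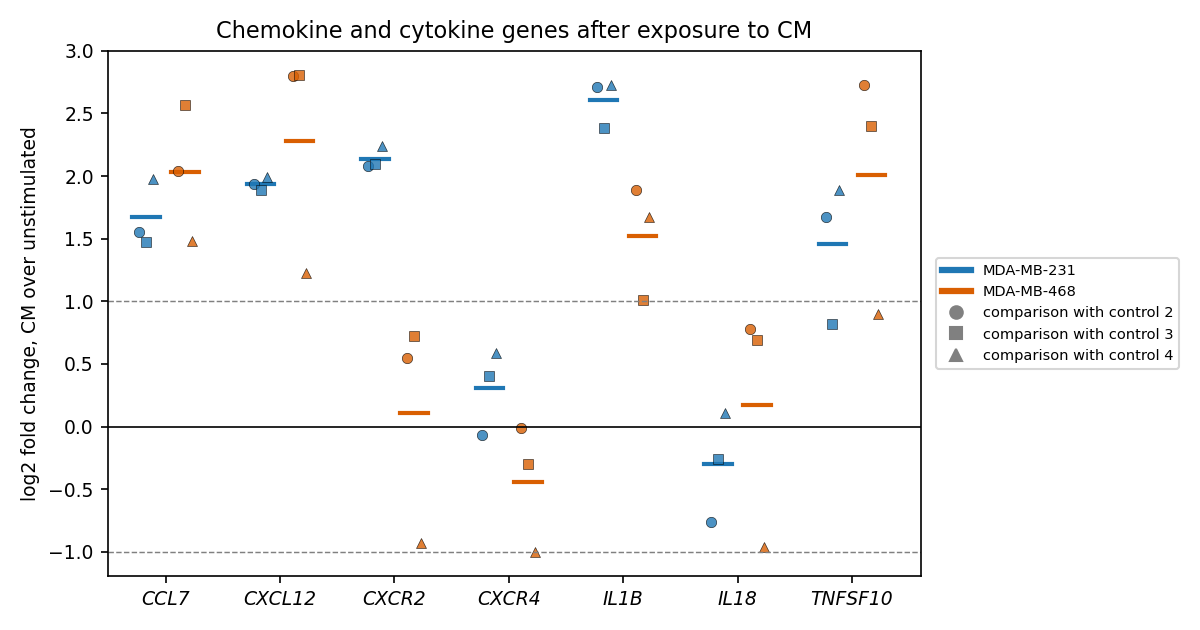
Log2 fold change (CM over unstimulated) of the 7 chemokine and cytokine genes in each comparison. Points are single comparisons, shaped by the number of the unstimulated control, short bars are the means of 3 comparisons and dashed lines mark 2-fold changes. CCL7, CXCL12, IL1B and TNFSF10 lie above 0 in all 6 comparisons, and CXCR2 lies above 2 on this scale in MDA-MB-231 cells and between -0.93 and 0.72 in MDA-MB-468.

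The plot of the members by comparison separates genes that were above 1 in all 6 comparisons from CXCR2, which was high in MDA-MB-231 and not in MDA-MB-468, and from CXCR4 and IL18, whose comparisons lay on both sides of 1 in at least 1 line.

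Upstream sequence is shown for the 4 genes raised in both lines and for CXCR2, since members that move together may be compared for shared motifs. RefSeq promoter windows (250 bases before to 50 bases after a transcription start, GRCh38.p14) were found for 6 of the 7 members, with 8 windows in all because CXCR4 had several. The last 100 bases before the start are printed 5′ to 3′ on the strand of the gene, with capitals marking matches on either strand to a loose NF-kappaB-like pattern (3 G, any 5 bases, 2 C) or to TATAAA, the core of a TATA box.
CCL7: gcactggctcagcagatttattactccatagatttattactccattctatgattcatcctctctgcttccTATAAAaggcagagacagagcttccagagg
CXCL12: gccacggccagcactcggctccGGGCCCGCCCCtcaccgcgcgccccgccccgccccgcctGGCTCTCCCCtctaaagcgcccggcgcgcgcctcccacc
IL1B: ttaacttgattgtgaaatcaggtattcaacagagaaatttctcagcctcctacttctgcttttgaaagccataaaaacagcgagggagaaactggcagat
TNFSF10: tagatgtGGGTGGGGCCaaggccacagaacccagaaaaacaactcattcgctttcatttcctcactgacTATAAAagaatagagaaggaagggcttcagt
CXCR2: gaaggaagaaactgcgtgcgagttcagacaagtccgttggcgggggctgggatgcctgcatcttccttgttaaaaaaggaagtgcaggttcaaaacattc
These are chr17:34270121-34270220 (plus strand) for CCL7, chr10:44385098-44385197 (minus strand) for CXCL12, chr2:112836780-112836879 (minus strand) for IL1B, chr3:172523431-172523530 (minus strand) for TNFSF10 and chr2:218125928-218126027 (plus strand) for CXCR2, in each case sequence upstream of the first exon of the transcript that starts there. TATAAA began 30 bases before the start in CCL7 and 31 bases before it in TNFSF10, and 3 members held it (CCL7, CXCR4 and TNFSF10), against 11.5% of all 35116 windows of the same length; this pattern was added after the windows had been read. The NF-kappaB-like pattern was found in windows of 3 members (CXCL12, CXCR4 and TNFSF10), and 58.7% of all windows hold it. For both patterns the counts are of members and the shares are of windows. As CXCR4 had several windows, not all of which held a match, counts and shares are not directly comparable. In the CXCL12 sequence the first run of capitals covers 2 overlapping matches. The AP-1-like TGACTCA (4.95% of all windows) was in none of the 8 windows. IL1B and CXCR2 held none of these 3 patterns in their windows. A match here describes letters and not a bound site, and a missing match covers these windows and no more.

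CCL7, a CC chemokine that attracts monocytes, had fold changes of 2.93, 2.78 and 3.96 in MDA-MB-231 (controls 2, 3 and 4; geometric mean 3.18). In MDA-MB-468 its fold changes were 4.10, 5.95 and 2.79 (mean 4.08). All 6 comparisons were above 2, the MDA-MB-468 comparisons spread more widely than those of MDA-MB-231, and the lines overlapped. On the log2 scale the mean of MDA-MB-231 minus that of MDA-MB-468 was -0.36, smaller than the SD of the comparisons in MDA-MB-468 (0.55). Among the 84 target genes, CCL7 ranked between 10 and 16 in the MDA-MB-231 comparisons and between 9 and 19 in those of MDA-MB-468, a rank that no choice of reference gene can alter.

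CXCL12, the CXC chemokine that binds CXCR4, had nearly the same fold change in every MDA-MB-231 comparison, 3.85, 3.70 and 3.98 (mean 3.84). Its SD of 0.05 (log2) was the smallest among the 7 members in that line, where the median SD over the 84 target genes was 0.34. In MDA-MB-468 the fold changes were 6.97, 7.02 and 2.34 (mean 4.86, SD 0.91 on the log2 scale). A pair of these comparisons lay above every MDA-MB-231 value and the comparison with control 4 lay below them all, so the lines overlapped and the difference of -0.34 in mean log2 was within the spread. CXCL12 ranked 8, 6 and 9 of 84 in MDA-MB-231 cells and 6, 6 and 18 in MDA-MB-468.

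CXCR2, a receptor of neutrophil-attracting chemokines, had fold changes of 4.24, 4.27 and 4.74 in MDA-MB-231 (mean 4.41, rank 5 of 84 by the mean). In MDA-MB-468 they were 1.47, 1.65 and 0.525 (mean 1.08). Every MDA-MB-231 comparison was above every MDA-MB-468 comparison, and the comparisons of MDA-MB-468 lay on both sides of 1. The log2 means differed by 2.03, a ratio of 4.07 between the lines, against SDs of 0.09 in MDA-MB-231 cells and 0.91 in MDA-MB-468. The genes whose comparisons did not overlap between lines were 2 of the 7 members, CXCR2 and IL1B, and 20 of the 84 target genes (23.8%), so the members' share was near that of the array with these references and comparisons. It was 5 of 7 against 35 of 84 (41.7%) with the median target gene as the reference, and 6 of 7 against 39 of 84 (46.4%) without control 4 of MDA-MB-468. With MDA-MB-231 above, these were 2 of 7 and 13 of 84 (15.5%), and 7 target genes had MDA-MB-468 above. This split of the array depended on the setting: it was 28 and 5 with the 5 housekeeping genes averaged, 7 and 7 with GAPDH, 7 and 15 with the positive PCR control wells, and 13 and 26 without control 4 of MDA-MB-468. The difference between lines was not tested, and 3 comparisons against 3 cannot give an exact 2-sided permutation p below 0.1. The rank of CXCR2 showed the same contrast: 5, 5 and 6 of 84 in MDA-MB-231, and 30, 29 and 43 in MDA-MB-468.

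CXCR4, the receptor of CXCL12, had fold changes of 0.955, 1.32 and 1.5 in MDA-MB-231 (mean 1.24). In MDA-MB-468 they were 0.996, 0.811 and 0.5 (mean 0.739). It was counted as neither raised nor lowered in either line, the MDA-MB-231 comparisons lay on both sides of 1, and those of MDA-MB-468 were all below it. The lowest MDA-MB-231 value lay just under the highest of MDA-MB-468, so the lines overlapped by that pair. The mean log2 of 0.31 in MDA-MB-231 became -0.19 against the reverse transcription control wells, so no direction is given for CXCR4 there.

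Ratios of members within a comparison need no reference gene and set the ligand beside its receptor. The fold change of CXCL12 over that of CXCR4 was 4.03, 2.80 and 2.66 in MDA-MB-231 (mean 3.11). In MDA-MB-468 it was 7, 8.66 and 4.68 (mean 6.57). The fold change of the ligand was above that of its receptor in all 6 comparisons, and the MDA-MB-468 ratios were all above those of MDA-MB-231. For the receptor pair, CXCR2 over CXCR4 was 4.44, 3.24 and 3.16 in MDA-MB-231 cells and 1.47, 2.03 and 1.05 in MDA-MB-468. The fold change of CXCR2 was thus above that of CXCR4 in every comparison, by more in MDA-MB-231, with no overlap between the lines. How many pairs of target genes do not overlap between the lines was not counted, so neither contrast can be set against the array. A ratio of this kind shows unequal change of 2 transcripts and not that either of them was unchanged.

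IL1B, which encodes the inflammatory cytokine interleukin-1β, had the highest fold change of all 84 target genes in each MDA-MB-231 comparison, 6.53, 5.21 and 6.63 (mean 6.09). In MDA-MB-468 its fold changes were 3.70, 2.02 and 3.17 (mean 2.87). All 6 comparisons were above 2, and the lowest of MDA-MB-231 was above the highest of MDA-MB-468. The log2 means differed by 1.08 (ratio 2.12), with SDs of 0.19 and 0.45. IL1B ranked 20, 26 and 7 of 84 in MDA-MB-468. This separation was lost when the reference was the reverse transcription control, the positive PCR control or the median target gene, whereas CXCR2 did not overlap between the lines under any reference tried.

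IL18, which encodes the related cytokine interleukin-18, had fold changes of 0.591, 0.834 and 1.08 in MDA-MB-231 (mean 0.811). In MDA-MB-468 they were 1.72, 1.61 and 0.513 (mean 1.12). Both lines had comparisons above and below 1, they overlapped, and IL18 was counted in neither direction in either line. IL18 ranked 80, 65 and 63 of 84 in MDA-MB-231, in the lower part of the array in each comparison, and 27, 31 and 44 in MDA-MB-468. The fold change of IL1B over that of IL18 was 11.1, 6.25 and 6.13 in MDA-MB-231 cells and 2.15, 1.25 and 6.19 in MDA-MB-468. The cytokines of the same family therefore moved unequally, with IL1B above IL18 in all 6 comparisons and the lines overlapping through the MDA-MB-468 comparison with control 4.

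TNFSF10, which encodes the death ligand TRAIL, had fold changes of 3.19, 1.76 and 3.70 in MDA-MB-231 (mean 2.75). In MDA-MB-468 they were 6.65, 5.27 and 1.86 (mean 4.02). It was above 1 in all 6 comparisons and below 2 in 1 comparison of each line, and the lines overlapped. When every comparison had to be above 2, TNFSF10 dropped out in both lines, leaving 4 members in MDA-MB-231 against 20 of 84 target genes (23.8%) and 3 in MDA-MB-468 against 19 of 84 (22.6%). Scaled to the reverse transcription control wells, its mean fold change in MDA-MB-231 was 1.95, under the threshold of 2. The SD of 0.57 (log2) was the largest among the 7 members in MDA-MB-231.

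**Figure D2:**
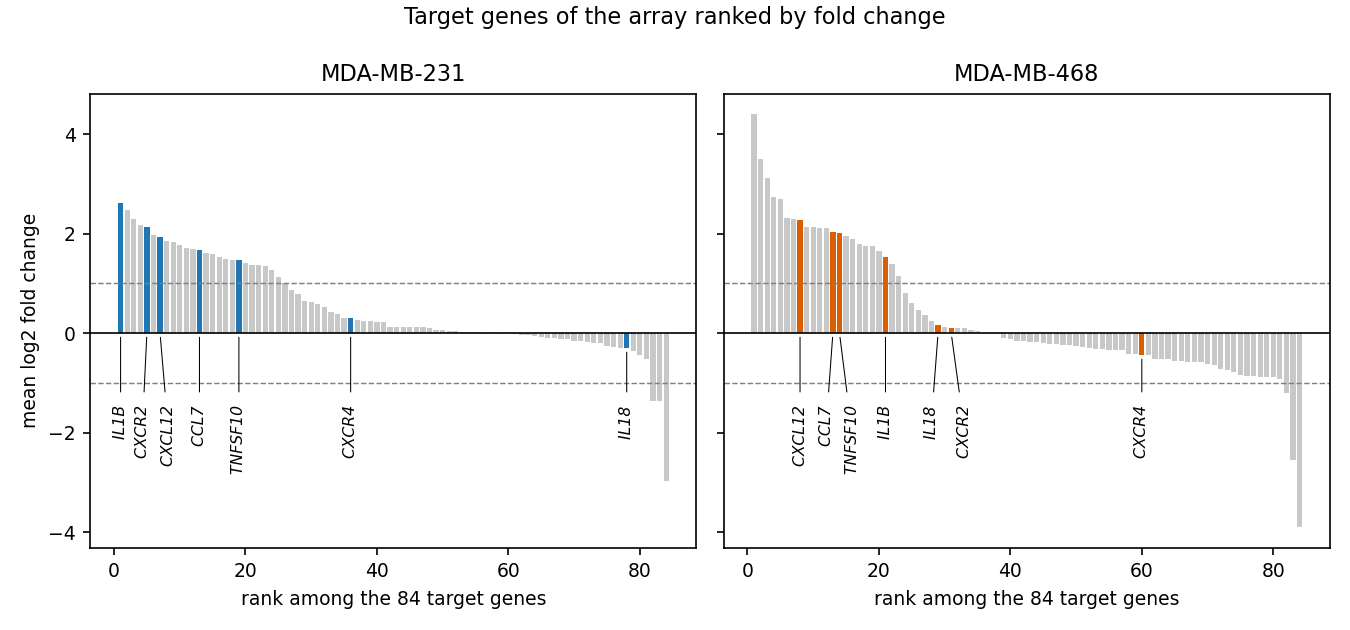
Mean log2 fold change of the 84 target genes in each line, ranked from highest to lowest, with the 7 chemokine and cytokine genes colored. Bars start at 0 and dashed lines mark 2-fold changes. IL1B stands at rank 1 in MDA-MB-231 cells and rank 21 in MDA-MB-468, and CXCR2 at rank 5 and rank 31.

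In the ranked plot, the raised members in MDA-MB-231 spread from the top of the array (IL1B, 6.09) to TNFSF10 (2.75), and those in MDA-MB-468 ran in another order, CXCL12 (4.86), CCL7 (4.08), TNFSF10 (4.02) and IL1B (2.87). The means of the first 3 of these in MDA-MB-468 differed by less than their spread, with SDs of 0.91, 0.55 and 0.98 on the log2 scale. Within a comparison, TNFSF10 over CXCL12 was below 1 each time (0.953, 0.75 and 0.795). CCL7 over CXCL12 was on both sides of 1 (0.588, 0.847 and 1.19). In MDA-MB-231, IL1B was above CXCL12 in every comparison (ratios of 1.70, 1.41 and 1.66), and in MDA-MB-468 it was below CXCL12 with controls 2 and 3 and above it with control 4 (0.530, 0.287 and 1.35).

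The MDA-MB-468 comparison with control 4 stood apart from the others. Its median log2 fold change over the 84 target genes was -0.92, against 0.17 and 0.35 with controls 2 and 3, while the medians in MDA-MB-231 were 0.37, -0.04 and 0.39. In MDA-MB-468, 76 of the 84 target genes (90.5%) had their lowest value with control 4, as did 6 of the 7 members, all but IL1B. In MDA-MB-231 these were 10 of 84 (11.9%) and 0 members. The positive PCR control wells, which hold a template that is added to the plate, moved as well, with fold changes of 2.02, 1.12 and 0.436 in MDA-MB-468 and of 1.29, 1.03 and 1.73 in MDA-MB-231. Their part in the low values of this comparison was not tested. Without it, CCL7, CXCL12, CXCR2, IL1B, IL18 and TNFSF10 did not overlap between the lines, 6 members in place of 2, while 39 of the 84 target genes (46.4%) did not overlap in place of 20. The same 4 members were raised in MDA-MB-468.

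**Figure D3:**
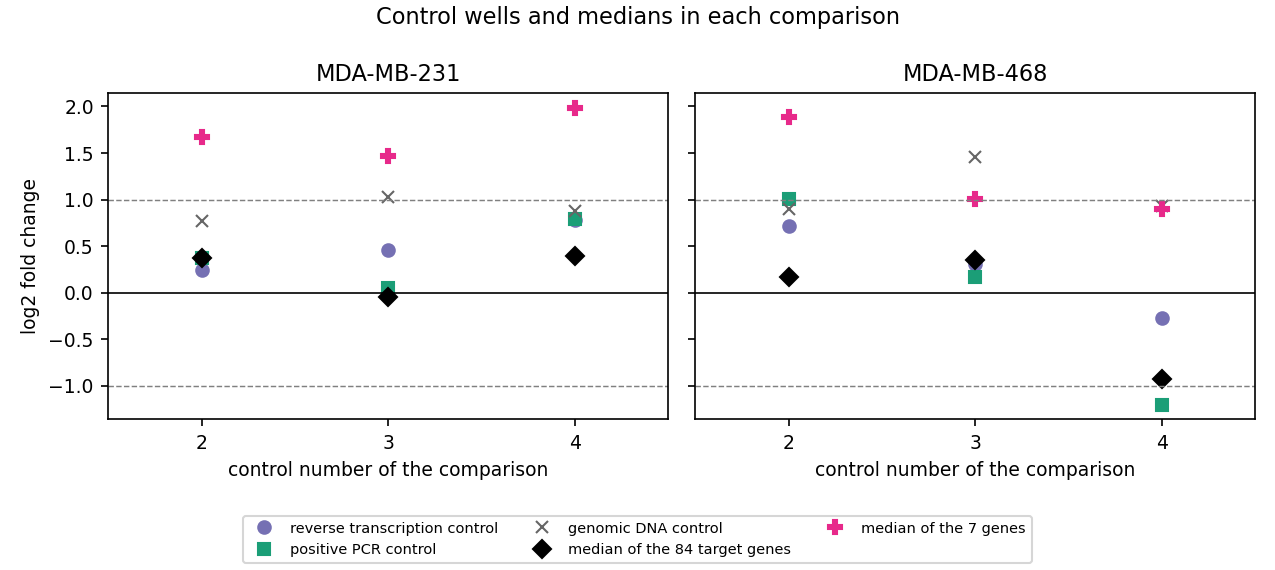
Log2 fold change of the control wells, of the median target gene and of the median member in each comparison, by line. In MDA-MB-468 the median of the 84 target genes (-0.92) and the positive PCR control (-1.20) are lowest with control 4, where the median of the 7 chemokine and cytokine genes is 0.90.

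The plot of the control wells shows the members' median above the median target gene in all 6 comparisons. The genomic DNA control, a well that amplifies non-transcribed DNA, had fold changes of 1.71, 2.04 and 1.84 in MDA-MB-231 cells and 1.86, 2.75 and 1.90 in MDA-MB-468, and its part in the members' values was not tested. The 3 reverse transcription control wells read 1.19, 1.38 and 1.72 in MDA-MB-231 cells and 1.65, 1.24 and 0.832 in MDA-MB-468. Within each comparison they shared a single value, whereas the positive PCR control wells differed from each other. Whether the value of the reverse transcription control wells was measured or set by a cycle limit was not tested. No member had the value of these wells in any comparison. CCL7, CXCL12, IL1B and TNFSF10 were above them in all 6 comparisons, whereas CXCR4 was below them in all 6, by 0.06 (log2) at the least. CXCR2 in MDA-MB-468 stood at -0.17, 0.41 and -0.66 relative to them, and IL18 at 0.07, 0.38 and -0.70, on both sides of these wells. TNFSF10 in MDA-MB-231 was above them by 1.42, 0.36 and 1.11. The deposited threshold cycles could not be assigned to samples and were not used, so no abundance is given.

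**Figure D4:**
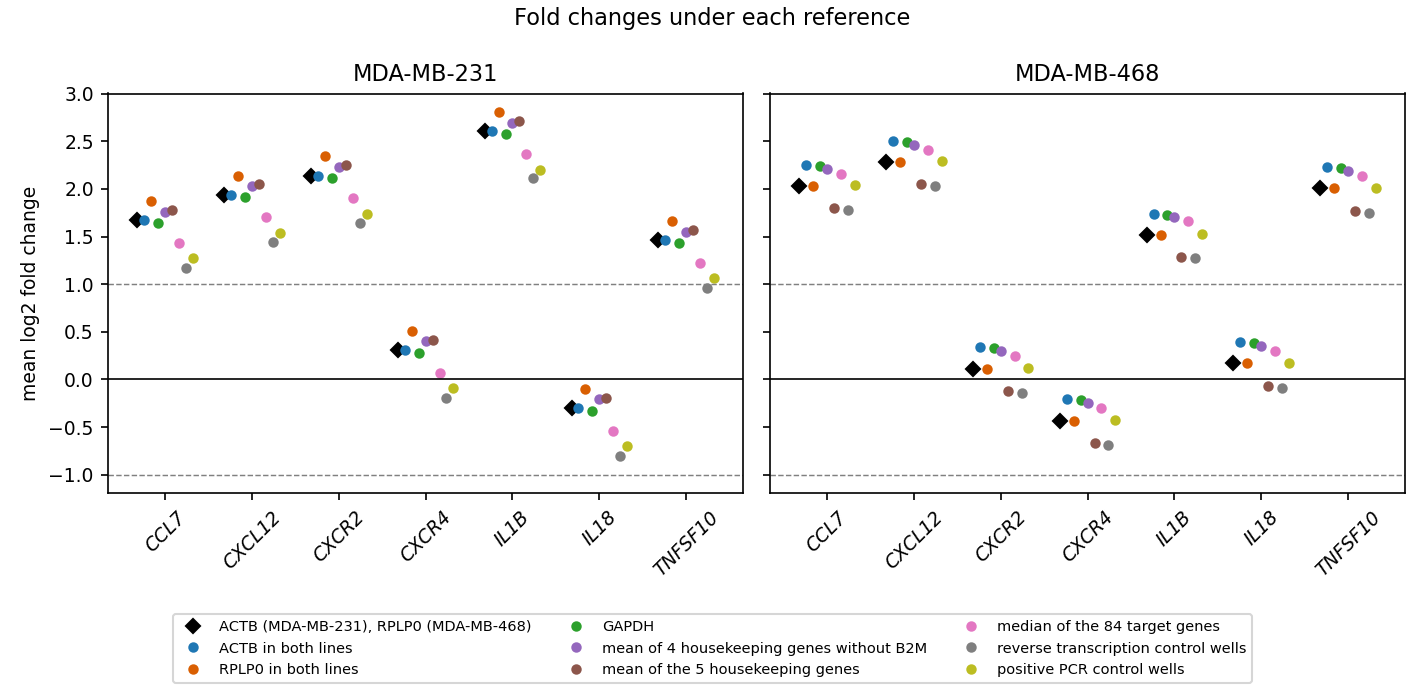
Mean log2 fold change of the 7 genes under each reference, by line, with the main reference as black diamonds. CCL7, CXCL12, IL1B and TNFSF10 stay above 0 under every reference in both lines, and CXCR2 in MDA-MB-468 lies between -0.14 and 0.34.

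Changing the reference shifts all genes of a line together, as the plot of the references shows. The median of the 84 target genes moved from 0.13 to between -0.36 and 0.33 in MDA-MB-231 cells and from -0.16 to between -0.42 and 0.06 in MDA-MB-468. Across the references, the mean log2 ranged from 1.17 to 1.87 for CCL7, from 1.44 to 2.14 for CXCL12, from 1.64 to 2.34 for CXCR2, from 2.11 to 2.81 for IL1B and from 0.96 to 1.66 for TNFSF10 in MDA-MB-231. In MDA-MB-468 CXCR2 (-0.14 to 0.34) and IL18 (-0.09 to 0.39) changed sign with the reference, and neither was counted as raised or lowered there.

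The members were then read beside lists of related target genes. Of 11 genes for secreted signals, 8 were raised in MDA-MB-231 cells and the same 8 in MDA-MB-468: CCL7, CXCL12, IL1B, TNFSF10, HGF, IGF1, KISS1 and VEGFA. IL18 and TGFB1 were among the 3 not raised. The MDA-MB-231 count was 5 when scaled to the reverse transcription control wells and 5 with every comparison above 2, and KISS1, with a mean of 2.01, was not raised there without control 2 (1.99) or control 4 (1.80). Over the array, 31.0% of target genes were raised in MDA-MB-231 cells and 27.4% in MDA-MB-468. HGF (hepatocyte growth factor) had fold changes of 4.21, 2.94 and 3.29 in MDA-MB-231 cells and 21.4, 18.2 and 3.71 in MDA-MB-468. The lines overlapped for HGF, and its MDA-MB-468 mean of 11.3 was 19.7 without control 4. IGF1 (insulin-like growth factor) had means of 4.89 and 21.1, with no overlap. Of 10 genes for cell-surface receptors of secreted signals, 3 were raised in MDA-MB-231 (CXCR2, KISS1R and FLT4) and 1 in MDA-MB-468 (FLT4, a receptor for lymphatic growth factors, at 3.13). Without control 4 the MDA-MB-468 count was 2, as the mean of KISS1R moved from 1.74 to 3.61, and without control 2 that mean was 1.06. The receptor shares were thus near or below those of the array. The list median was 1.46 for signals and 0.22 for receptors in MDA-MB-231, and 2.03 and 0.09 in MDA-MB-468, beside 0.13 and -0.16 for the array (log2). CXCR4 was thus 1 of 7 receptor genes not raised in MDA-MB-231, and the ligand genes CCL7 and CXCL12 stood with the raised part of the signals.

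Of 12 genes known to be induced by interleukin-1, tumor necrosis factor or NF-kappaB, 11 were raised in MDA-MB-231 cells and 10 in MDA-MB-468, beside 31.0% and 27.4% of the array. These 12 genes were picked with earlier results of these data known, and other target genes induced in this way may be missing. The counts describe the listed genes, and activity of a pathway was not tested. The MDA-MB-231 count was 7 when scaled to the reverse transcription control wells. The MDA-MB-468 count was 9 without control 2 or control 3, as the mean of NR4A3 moved from 2.21 to 1.91 or 1.99. Among the 10 raised in both lines were CCL7, CXCL12, IL1B, TNFSF10 and the matrix metalloproteinase genes MMP3, MMP9 and MMP13. Without the 4 members among them, 7 of 8 and 6 of 8 genes were raised, with median log2 fold changes of 1.66 and 1.85. PLAUR, the urokinase receptor, was raised in neither line (1.09 and 1.08). The other exception was MMP10, a stromelysin, which had fold changes of 3.49, 3.32 and 3.90 in MDA-MB-231 cells and 1.24, 1.34 and 0.597 in MDA-MB-468, with no overlap between the lines, as for CXCR2.

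Since CM came from macrophages, genes typical of myeloid cells were set beside the members. Of 10 such genes, 5 were raised in MDA-MB-231 (CCL7, CXCR2, IL1B, MMP9 and SYK) and 3 in MDA-MB-468 (CCL7, IL1B and MMP9), and 4 of the 10 are members. Of the other 6, 2 and 1 were raised, and beside 31.0% and 27.4% of the array these 6 genes, and the 10 in MDA-MB-468, were near or below the background. MMP9 (gelatinase B) had means of 4.53 and 4.38, SYK had means of 2.87 and 0.545 (0.475 in MDA-MB-468 without control 3, then counted as lowered), and CST7 (cystatin F), CTSK, CTSL (cathepsins K and L) and PLAUR were raised in neither line. CST7, which is largely restricted to blood cells, stood at 0.963 in MDA-MB-231 cells and 0.849 in MDA-MB-468. The array holds no defining macrophage marker other than these, their levels are not given here, and whether RNA of other cells reached the samples was not tested.

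**Figure D5:**
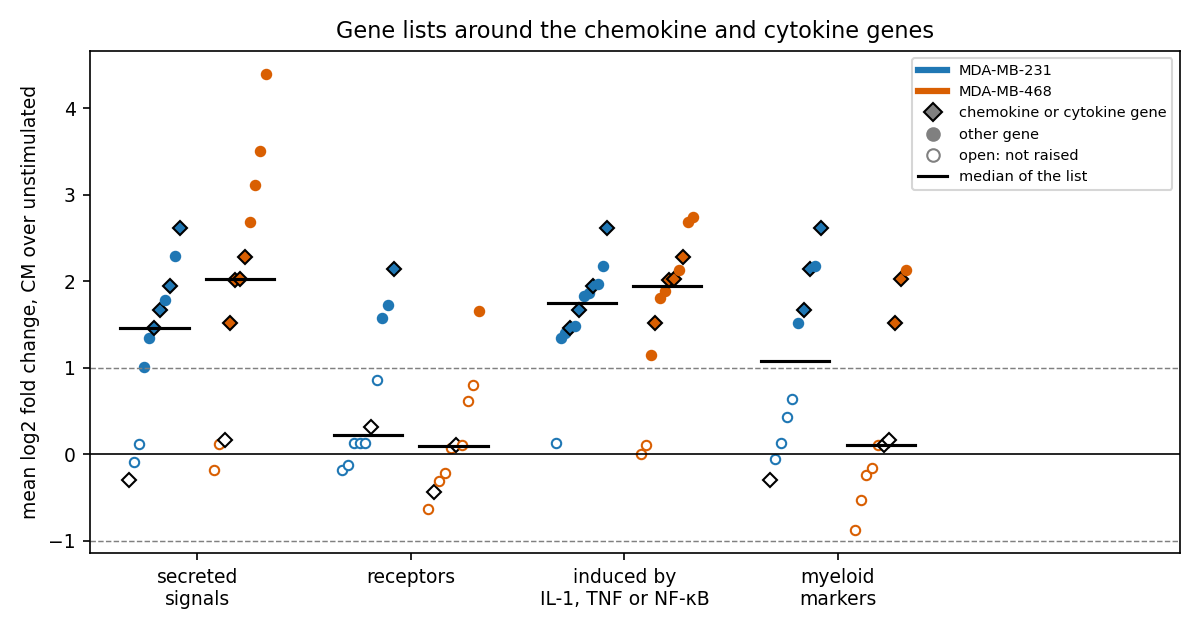
Mean log2 fold change of the genes in each list, by line. Diamonds are the chemokine and cytokine genes, circles are other genes, open symbols are genes not counted as raised, and black bars are list medians. The signals have medians of 1.46 and 2.03, the receptors of 0.22 and 0.09, the induced genes of 1.75 and 1.95 and the myeloid markers of 1.08 and 0.11.

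The plot of the lists places the raised diamonds among raised circles in the signals and induced genes, and shows CXCR2 with KISS1R and FLT4 above 1 among the MDA-MB-231 receptors. For each member, the target genes with the most similar log2 fold changes over the 6 comparisons were taken by Euclidean distance, as a description. CXCR2 lay 0.69 from MMP10, and its second neighbor, MMP7, lay much farther away at 2.06. CCL7 lay 0.72 from MCAM and 0.82 from ITGB3, CXCL12 0.77 from MMP9 and 0.89 from MCAM, and TNFSF10 0.88 from MCAM and 0.93 from CDH6. These 3 members thus shared MCAM, a cell adhesion molecule of the immunoglobulin superfamily, as a neighbor, with fold changes of 3.53, 2.19 and 3.62 in MDA-MB-231 cells and 5.73, 7.15 and 2.91 in MDA-MB-468. IL1B had no close neighbor, with MMP13 at 1.73 and ITGA7 at 1.82. CXCR4 and IL18, whose values stayed nearer to 1, lay close to several genes of the array, METAP2 at 0.61 and FAT1 at 0.45 among the nearest.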

How the data were processed

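The array measured RNA of both cell lines, with 84 target genes, 5 housekeeping genes and 7 control wells. The deposited values used are linear fold changes (ratio of 1 CM sample to 1 unstimulated sample) that the authors computed by the comparative threshold cycle method and scaled to the housekeeping genes, whose geometric mean is 1.000 in each of the 6 comparisons. Software settings and cycle limits of that step are not given in the sources used here. Well positions were named from the layout of the array given by the study.

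Each comparison was divided by ACTB (MDA-MB-231) or RPLP0 (MDA-MB-468), the gene the study sets to 1 for that line, and taken to log2. Python 3.11.15, numpy 2.4.6, pandas 2.3.3 and matplotlib 3.10.9 were used. The counting rule was also run on simulated data, but no outcome of that run is given here and no result rests on it. Genes named are the 7 members, genes of the fixed lists, housekeeping genes, control wells, 4 genes that check the line and, for each member, target genes with the smallest Euclidean distance; not all of these are reported by name. SYK, CTSK and SRC are also named for opposite directions between the lines. The members and lists were chosen with earlier results of these data known.

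A limma test of single samples had been planned. It needs values per sample, and the 16 columns of threshold cycles carry names that match no sample label, so they were not used and no level is given. The authors' own mean comparison of each line holds mean fold changes, and it was not used. Alternatives were other references, other thresholds and leaving out each comparison.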

Additional observations from a re-analysis of the deposited data

Results flagged for a closer look

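SYK, a cytoplasmic tyrosine kinase of immune receptor signaling and 1 of the 10 myeloid genes, was above 1 in all 3 MDA-MB-231 comparisons (3.34, 2.05 and 3.44) and below 1 in all 3 MDA-MB-468 comparisons (0.607, 0.718 and 0.372). The log2 means differed by 2.40 (MDA-MB-231 minus MDA-MB-468), and this difference was not tested. Without control 3, the MDA-MB-468 mean of SYK moved from 0.545 to 0.475, which counts as lowered. CTSK (cathepsin K) showed the same opposite directions with smaller values, 1.32, 1.20 and 1.52 in MDA-MB-231 cells and 0.917, 0.943 and 0.388 in MDA-MB-468. Its log2 means differed by 0.95, and this difference was not tested either. The directions of CTSK depend on the reference. In MDA-MB-231, the reverse transcription control wells (1.38 and 1.72) were above CTSK with controls 3 and 4. In MDA-MB-468, ACTB (0.893 and 0.872) was below CTSK with controls 2 and 3. With the main references, none of the 7 chemokine and cytokine genes went in opposite directions in every comparison of the lines. Among the 84 target genes, only SYK, CTSK and SRC did, so the absence among the members is near the share of the array. SRC had fold changes of 1.05, 1.03 and 1.07 in MDA-MB-231 cells and 0.958, 0.402 and 0.545 in MDA-MB-468.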

How the results depend on the processing

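The counts of members raised were 5 in MDA-MB-231, 4 in MDA-MB-468 and 4 in both lines with each housekeeping reference tried, with the median target gene, with a mean fold change over 1.5 and without any single comparison, and the same genes were raised in each of these. They were 4, 4 and 3 with the reverse transcription control wells and 4, 3 and 3 with every comparison over 2, TNFSF10 being lost. With every comparison over 2, 20 target genes were raised in MDA-MB-231, 19 in MDA-MB-468 and 14 in both lines. With the positive PCR control wells, which were added as a reference once the data had been seen, the members raised were 5, 4 and 4. Beside these, 19 target genes were raised in MDA-MB-231, 23 in MDA-MB-468 and 15 in both lines. The members not overlapping between lines were 2 (CXCR2 and IL1B), beside 20 of 84 target genes (23.8%). They were 5 with the median target gene (CXCR2 without IL1B among them), beside 35 (41.7%), and 3 with the 5 housekeeping genes averaged, RPLP0 in both lines, the reverse transcription control wells or the positive PCR control wells, beside 33, 26, 28 and 22. They were 2 to 6 without single comparisons, beside 22 to 39 target genes, with 6 and 39 (46.4%) without control 4 of MDA-MB-468. With the reverse transcription control wells, 16 in place of 26 target genes were raised in MDA-MB-231 cells and 12 in place of 21 in both lines, and in MDA-MB-231 the secreted signals fell from 8 to 5 and the induced genes from 11 to 7. The wells of this reference shared a single value in each comparison, so it may not be a measured one. The secreted signals were also 5 with every comparison over 2. Receptors raised in MDA-MB-468 were 1, but 2 with a mean over 1.5, and 1 to 2 without single comparisons, KISS1R being added without control 4. Target genes lowered in MDA-MB-468 were 3, but 11 with all 5 housekeeping genes averaged, 12 with the reverse transcription control wells, 15 with a mean under 0.67, 9 without control 2 and 10 without control 3; in MDA-MB-231 they were 3, but 1 with every comparison under 0.5. Of 154 recomputed mean log2 values of members, 134 moved by less than the SD of the comparisons, 20 moved by more and 0 of the raised ones changed sign. The cause of these shifts was not tested. No paired analysis was possible because the headings leave unsettled which samples each ratio pairs, and no test gave the results. A test of the 3 log ratios of a line against 0 could be computed, but it was not run, since nothing shows that they are independent. The planned test of single samples and the levels from threshold cycles were not run.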

Other observations

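Genes typical of mesenchymal cells were also read beside CXCL12, which fibroblasts express. Of 7 such genes, 4 were raised in MDA-MB-231 (CXCL12, HGF, IGF1 and MMP2) and 6 in MDA-MB-468, where CDH11 and FN1 were added, beside 31.0% and 27.4% of all 84 target genes. With every comparison above 2, the counts were 4 and 4. CDH11 (cadherin-11) had fold changes of 1.23, 1.16 and 1.59 in MDA-MB-231 cells and 5.13, 3.97 and 4.10 in MDA-MB-468. FN1 (fibronectin) had 0.711, 0.863 and 1.18 in MDA-MB-231 cells and 3.58, 3.70 and 1.34 in MDA-MB-468. The comparisons of both genes were all higher in MDA-MB-468, the reverse of CXCR2 and IL1B, and the difference was not tested. COL4A2, a basement membrane collagen, was raised in neither line, with means of 0.898 and 0.679. KISS1, which encodes the ligand of KISS1R, had means of 2.01 in MDA-MB-231 cells and 8.65 in MDA-MB-468, while its receptor gene had 3.29 and 1.74 (in MDA-MB-468, 3.61 without control 4, then counted as raised, and 1.06 without control 2), so the ligand was the higher of the pair in MDA-MB-468 and the receptor in MDA-MB-231. The mean of KISS1 in MDA-MB-231 was under 2 without control 2 (1.99) or control 4 (1.80).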
